A study of Mus musculus and Rattus norvegicus with 26 samples.

Results

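Kainate receptors are glutamate-gated ion channels built from the subunits encoded by Grik1 to Grik5, and Grid1 encodes a delta receptor subunit of the same superfamily. Grik1, Grik2 and Grik3 encode the GluK1, GluK2 and GluK3 subunits, which can form channels on their own. Grik4 and Grik5 encode the high-affinity subunits GluK4 and GluK5, which need a partner from the first group. The GluD1 subunit encoded by Grid1 is known mainly as a synaptic organizer that binds cerebellins, which in turn bind neurexins. In the hippocampus these subunits act at excitatory and inhibitory synapses, and GluK1 is known for its prominence in interneurons.

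The data are intronic contigs, short stretches of intron covered by sequencing reads. The study used such contigs as evidence of transcripts that kept intron sequence in the cytoplasm (cytoplasmic intron-retaining transcripts, CIRTs). For somas, BAT cells and cardiomyocytes the study retained only contigs of at most 400 nt for this. The deposited lists of these cells also hold longer contigs, which were kept here. Dendrites were cut from the cell body, whereas somas, BAT cells and cardiomyocytes still held the nucleus, so in their lists retained introns and unspliced nuclear RNA cannot be told apart. The contigs of the 6 receptor genes were selected by gene symbol, which gave 95 contigs of 112345 in the 6 deposited lists, in 53 introns when each list is counted by itself. The mouse dendrite list held 22 of them, the mouse soma list 25, the BAT cell list 32, the cardiomyocyte list 4, the rat dendrite list 2 and the rat soma list 10. The mouse lists together hold contigs of 12467 genes and the rat lists those of 5712 genes. The symbol Grid1 did not occur in the rat lists.

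Mouse dendrites (3 libraries) and mouse somas (3) came from hippocampal neurons of C57BL/6 embryos at day 18, and rat dendrites (2) and rat somas (3) from those of Sprague-Dawley embryos at day 18. The neurons were grown in culture, dendrites were cut off and pooled before amplification, and somas were single cells. BAT cells (6 libraries) were single cells of interscapular brown adipose tissue from CD-1 embryos at day 17.5. Cardiomyocytes (9) came from C57BL/6 embryos at day 14.5 that carried the hemizygous transgene mAG-hGem(1/110) of the Fucci cell cycle reporter under a CMV promoter. These numbers of libraries are those of the labels, and for both of these non-neuronal cell types the study names a smaller number of cells. No genotype or drug treatment was compared, and all RNA went through 3 rounds of antisense RNA amplification. The libraries of a condition were pooled in its list, so no value per library, no error between libraries and no test could be given.

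Read numbers are given per intron and were scaled to RPM, here the reads per 1000000 reads listed in the introns of the same list. Between 1007530 reads in rat dendrites and 17858440 in BAT cells were listed. Intervals are 95% intervals, exact Poisson for read numbers and Wilson for shares, and they cover counting error only, because reads copied by amplification are not independent molecules. In a pooled list, fewer cells that express a gene and less RNA per cell cannot be told apart. Of the neuronal markers, 7 of 12 were listed in mouse dendrites and 8 of 12 in mouse somas, 8 of 9 brown fat markers were listed in BAT cells and 8 of 10 cardiomyocyte markers in cardiomyocytes. The neuronal markers came to 367.7 RPM in sum in mouse dendrites and 33184.5 in mouse somas. Mouse dendrites also held 4 of 10 cardiomyocyte markers at 379.7 RPM in sum, 5 of 9 brown fat markers at 220.6 and 7 of 10 glial markers at 77.4. In mouse somas these 3 sums were 10.2, 1.08 and 195.1 RPM. Rat dendrites held neuronal markers at 418.9 RPM, peripheral nerve and Schwann cell markers at 467.5 and glial markers at 206.5, and rat somas held them at 3223, 0 and 149. The part of other cells in the dendrite values was not tested.

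Dendrites and somas of mouse shared intron stretches of Grik1, Grik5 and Grid1, and some of these shared stretches are shown first because they were found in 2 lists made from separate libraries. The soma contigs behind the Grik1 and Grik5 stretches are longer than 400 nt, the limit that the study set for whole cells. The study describes introns as tending to be rich in repeats, and whether the printed stretches hold repeats was not analysed here. Each sequence is the gene strand of the RefSeq-defined intron in the NCBIM37 genome, and capitals mark runs of at least 5 adenines or thymines. In intron 14 of Grik1 the shorter of the 2 overlaps is given, and of the longer overlap in intron 8 of Grik5 the first 300 bases.
Grik1 intron 11 (chr16:87945841-87946064, minus strand): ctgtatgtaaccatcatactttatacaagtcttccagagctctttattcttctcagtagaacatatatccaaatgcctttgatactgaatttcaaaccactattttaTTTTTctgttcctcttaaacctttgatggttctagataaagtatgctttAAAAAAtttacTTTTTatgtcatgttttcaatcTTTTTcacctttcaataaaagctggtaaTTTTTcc
Grik1 intron 14 (chr16:87915274-87915479, minus strand): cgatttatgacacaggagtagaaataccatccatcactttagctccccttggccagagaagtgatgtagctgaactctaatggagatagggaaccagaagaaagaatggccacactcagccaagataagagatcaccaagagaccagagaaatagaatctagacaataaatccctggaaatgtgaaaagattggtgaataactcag
Grik1 intron 16 (chr16:87896934-87897053, minus strand): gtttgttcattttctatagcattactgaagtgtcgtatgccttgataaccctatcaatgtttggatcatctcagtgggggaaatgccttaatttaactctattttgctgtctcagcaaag
Grik5 intron 8 (chr7:25844588-25844887, minus strand): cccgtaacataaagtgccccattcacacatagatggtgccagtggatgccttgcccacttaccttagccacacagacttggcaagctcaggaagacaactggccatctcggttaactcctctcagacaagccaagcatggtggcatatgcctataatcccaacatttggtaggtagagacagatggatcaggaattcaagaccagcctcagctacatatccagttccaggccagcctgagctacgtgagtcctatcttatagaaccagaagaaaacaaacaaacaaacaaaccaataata
Grid1 intron 8 (chr14:36188361-36188579, plus strand): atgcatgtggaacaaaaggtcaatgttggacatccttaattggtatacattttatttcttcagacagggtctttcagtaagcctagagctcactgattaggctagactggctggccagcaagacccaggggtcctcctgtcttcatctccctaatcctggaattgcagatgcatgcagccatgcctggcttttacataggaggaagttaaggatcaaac

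The Grik1 intron 16 stretch begins with the first base of the intron. For Grik2, no base was shared between dendrites and somas. The stretches that Grik2 shared with BAT cells, in intron 16 with dendrites and in intron 12 with somas, are shown for comparison.
Grik2 intron 16 (chr10:48827173-48827326, minus strand): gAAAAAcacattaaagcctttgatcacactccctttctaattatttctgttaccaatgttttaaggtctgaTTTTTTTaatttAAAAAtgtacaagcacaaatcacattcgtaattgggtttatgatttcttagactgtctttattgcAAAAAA
Grik2 intron 12 (chr10:48980554-48980701, minus strand): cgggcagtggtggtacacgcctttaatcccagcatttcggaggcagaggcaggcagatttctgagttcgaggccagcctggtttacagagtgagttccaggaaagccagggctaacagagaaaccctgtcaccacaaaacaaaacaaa

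How many of the receptor genes were listed depended on the list. In mouse dendrites 5 of 6 genes had a contig, all but Grik3, while 69.0% of the genes of the mouse lists were listed there. In mouse somas 4 of 6 were listed (47.3% of genes), in BAT cells 3 (82.0%) and in cardiomyocytes 3 (49.8%). In rat dendrites Grik2 and Grik5 were listed (78.5% of the genes of the rat lists), and in rat somas Grik1, Grik3, Grik4 and Grik5 (59.4%). Summed over the genes, the listed reads came to 885.5 RPM in mouse dendrites, 2855 in mouse somas, 428.5 in BAT cells, 0.656 in cardiomyocytes, 37.7 in rat dendrites and 2091 in rat somas. With contigs over 400 nt left out in whole cells but not in dendrites, BAT cells had 996 RPM, above mouse dendrites. Reads are counted per intron, so an intron with any shorter contig kept all its reads. All 9 receptor introns of BAT cells did, so their level rose only because the total of listed reads fell. The somas of both species had the highest sums, and in both of them Grik1 held the most receptor reads.

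**Figure D1:**
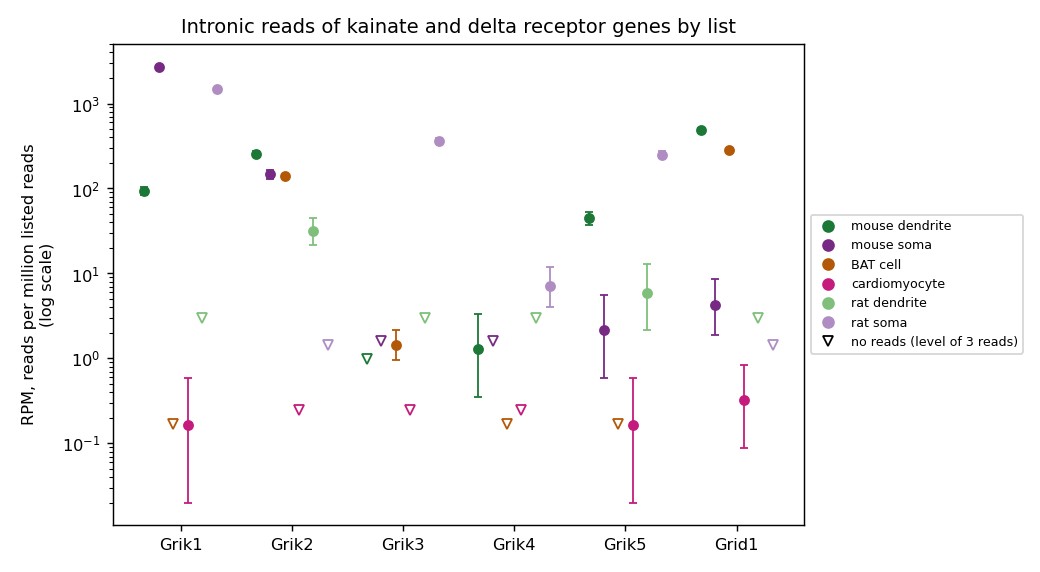
Reads in introns of each receptor gene in RPM of the list (y axis, log scale), 1 point per list, with exact 95% Poisson intervals. Open triangles stand for lists without reads and are set at the level of 3 reads. Grik1 was highest in the somas of both species, Grid1 was highest in mouse dendrites and BAT cells, and the cardiomyocyte points lie at 2 or 4 reads.

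Grik1, which encodes GluK1, had most of its reads in somas. Its reads came to 290 in mouse dendrites, 5011 in mouse somas, none in BAT cells and 2 in cardiomyocytes. In RPM the level was 94.0 in dendrites (interval 83.5 to 105.4) and 2701 in somas (interval 2626 to 2777), so somas were 28.7-fold higher (counting interval 25.5 to 32.4). In rat, Grik1 had 3073 reads in somas and none in dendrites, which makes the soma level at least 493-fold higher when 3 reads are allowed for the rat dendrites. Of these soma reads 1822 were listed in intron 17, with 1 contig of 131 nt, and 1246 in intron 13, with 1 contig of 1181 nt. With rat soma contigs over 400 nt left out, the soma level went from 1467 to 2950 RPM. Intron 13 was lost by this, and the level rose because the total of listed reads fell. Grik1 was therefore at least 4-fold higher in somas in both species, as were 22.0% of the genes compared in mouse and 23.6% of those in rat.

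Neuronal markers of several kinds were also higher in the mouse somas. The general neuronal genes Syt1 and Snap25 had 4668 and 935.1 RPM in mouse somas, against 23.3 and 11.015 in mouse dendrites. Gad1 and Gad2, the glutamic acid decarboxylases that make GABA, had 24639 and 2329 RPM in mouse somas, against none and 149.7 in mouse dendrites. Of the markers of excitatory neurons, the vesicular glutamate transporter gene Slc17a7 had none in mouse somas and 5.83 RPM in dendrites, and the kinase gene Camk2a had 240.4 RPM in somas and 166.9 in dendrites. In rat, Gad1 had 387.2 RPM in somas and 296.8 in dendrites, and Gad2 had 89.8 in somas and none in dendrites. Syt1 and Snap25 had 2158 and 445 RPM in rat somas, against 52.6 and none in rat dendrites. Nrgn went the other way, with none in rat somas and 59.6 RPM in rat dendrites. The part of these cells in the Grik1 values was not tested.

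The introns of Grik1 did not keep the same proportions in the 2 compartments. In mouse dendrites 259 of the 290 reads (89.3%) lay in intron 14, which had 1072 reads (21.4%) in somas. Intron 11 had 2 reads in dendrites and 1495 in somas, and intron 13 had none in dendrites and 1596 in somas. Intron 2 had 19 and 522 reads, and the last intron, 16, had 10 and 271. In RPM, somas exceeded dendrites 6.89-fold in intron 14, 45.7-fold in intron 2, 45.1-fold in intron 16 and at least 885-fold in intron 13. Introns 6, 9 and 10 were listed in somas alone, with 2, 2 and 51 reads.

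**Figure D2:**
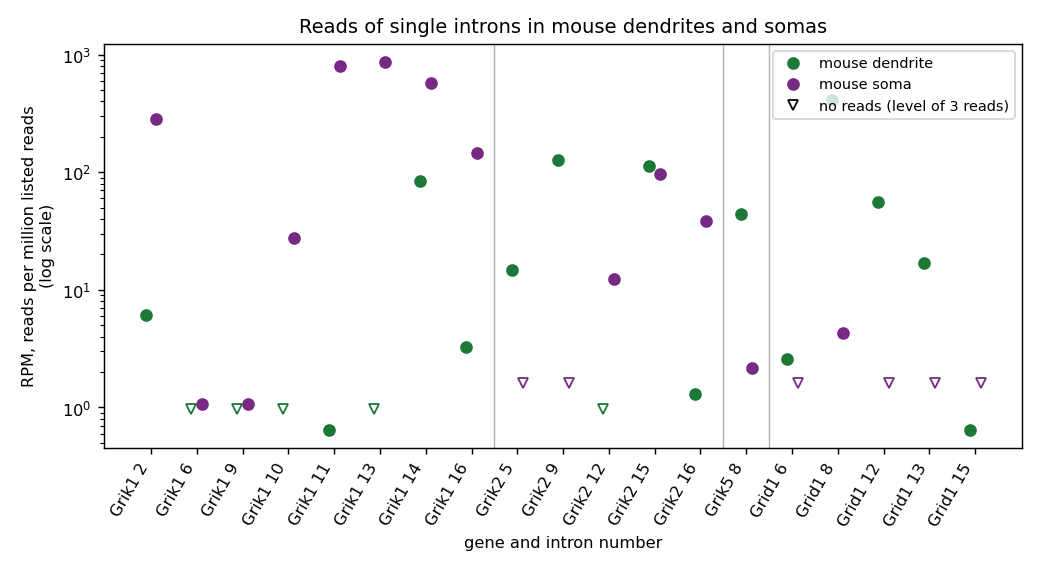
Reads of single introns of Grik1, Grik2, Grik5 and Grid1 in mouse dendrites (green) and somas (purple), in RPM (y axis, log scale), with open triangles at the level of 3 reads for introns without reads. Every Grik1 intron with more than 3 reads was higher in somas, every Grid1 intron with more than 3 reads was higher in dendrites, and the Grik2 introns split between the 2 sides.

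All 5 Grik1 contigs of mouse dendrites shared bases with a soma contig, against 3136 (11.9%) of the 26445 contigs in the dendrite list. Among contigs in introns listed in both, the share over all genes was 34.4%. With soma contigs over 400 nt left out, an alternative chosen after the data were seen, 0 of the 5 Grik1 contigs overlapped, against 7.92% of all dendrite contigs. The overlaps measured 282 nt in intron 2, 224 nt in intron 11, 804 nt and 206 nt in intron 14 and 120 nt in intron 16. In intron 14 the dendrite contig of 1292 nt and the soma contig of 804 nt ended 4 nt apart at their 3′ ends. In introns 2, 11 and 16 the dendrite contig lay wholly within the longer soma contig. Soma contigs of 709 nt in intron 11 and 749 nt in intron 14 had no dendrite contig over them.

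Intron 16 of Grik1 is 457 nt long and lies at chr16:87896597-87897053, on the minus strand, after codon 846 of 897 in the annotated coding sequence. The soma contig covered all of it, 100%, from the first to the last base. The dendrite contig of 120 nt began at the same first base. Of the 4 introns shared by the compartments, it was the shortest, and the others were covered by soma contigs to 30.2% (intron 2), 25.6% (intron 11) and 39.2% (intron 14). The 1 cardiomyocyte contig of Grik1, of 72 nt, lay within the soma contig of 1845 nt in intron 14.

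**Figure D3:**
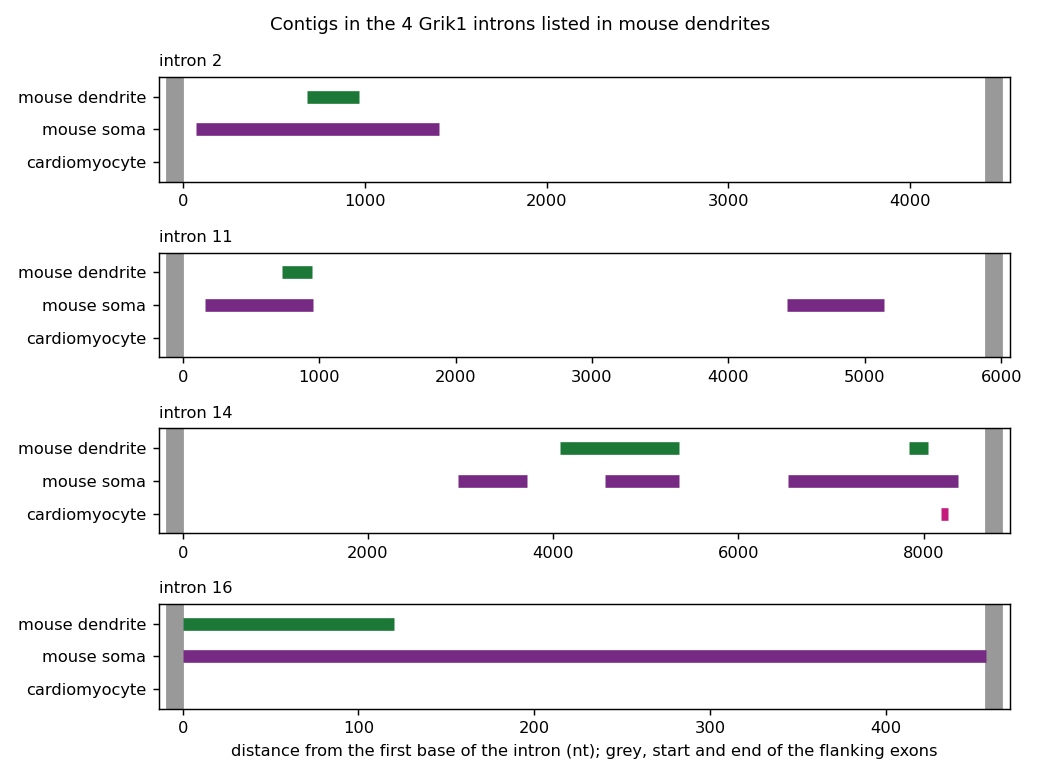
Contigs in the 4 Grik1 introns listed in mouse dendrites, drawn as bars by distance from the first base of each intron (x axis, nt), for mouse dendrites, mouse somas and cardiomyocytes. Grey marks where the flanking exons begin. Each dendrite bar lies over a soma bar, and in intron 16 both bars start at base 0.

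Grik2, which encodes GluK2, was listed in 3 of the 4 mouse lists. It had 794 reads in dendrites, 274 in somas, 2517 in BAT cells and none in cardiomyocytes. In RPM these were 257.2 (interval 239.7 to 275.8), 147.7 (interval 130.7 to 166.2) and 140.9 (interval 135.5 to 146.6). The intervals of somas and BAT cells overlapped, and dendrites exceeded somas 1.74-fold (counting interval 1.52 to 2.00), under the 4-fold limit. With contigs over 400 nt left out in whole cells but not in dendrites, the levels were 106 RPM in somas and 328 in BAT cells. The order of the lists thus depended on this limit. BAT cells kept all their Grik2 reads, so their level rose only through the smaller total. In somas intron 15 lost both contigs and its 180 reads. In rat, dendrites had 32 reads in intron 14 and somas none. When 3 reads are allowed for the somas, dendrites were at least 22.2-fold higher, and at least 6.56-fold with soma contigs over 400 nt left out.

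The introns that held the Grik2 reads differed between the lists. In dendrites intron 9 had 396 reads and intron 15 had 348, and together they held most of the Grik2 reads. In somas intron 9 had none, intron 15 had 180, intron 16 had 71 and intron 12 had 23. In BAT cells intron 9 alone had 2324 of the 2517 reads (92.3%). Intron 16 was therefore 29.5-fold higher in somas in RPM, with 4 reads in dendrites, while intron 9 was at least 79.4-fold higher in dendrites. Intron 15, listed in all 3, had 113 RPM in dendrites, 97.0 in somas and 0.448 in BAT cells.

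Of the 7 Grik2 contigs of dendrites, 0 shared a base with a soma contig, against 11.9% of all dendrite contigs. In introns listed in both it was 0 of 3, against 34.4%, so most contigs of other genes did not overlap either. In intron 9 the dendrite contigs (211, 441 and 94 nt) and the BAT cell contigs (835 and 243 nt) did not overlap. In introns listed in both, 1 of 7 dendrite contigs of Grik2 overlapped a BAT cell contig, against 29.4% over all genes. Overlaps with BAT cells were limited to 154 nt of intron 16 in dendrites, and to 148 nt of intron 12 and 19 nt of intron 16 in somas. The smallest dendrite contig of intron 9 lay 15 nt from the 5′ end of the intron.

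Grik3, which encodes GluK3, was a gene of the rat soma list. It had 767 reads there, 366.2 RPM (interval 340.7 to 393.0), in 4 introns: 632 in intron 1, 39 in intron 2, 58 in intron 10 and 38 in intron 12. Rat dendrites had none, so somas were at least 123-fold higher on the same terms. With soma contigs over 400 nt left out, the soma level was 1083 RPM, because the total fell while introns 1 and 2 kept their reads. In the mouse lists the only contig was in BAT cells, of 198 nt in intron 9 with 26 reads. Mouse dendrites and somas had no Grik3 reads, which allows levels of up to 0.972 and 1.62 RPM by the one-sided 95% limit of 3 reads.

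Grik4, which encodes GluK4, was close to the limit of these lists. Mouse dendrites had 4 reads in intron 9 and rat somas had 13 in intron 10 and 2 in intron 13. All other lists had none, and no ratio is given for mouse. In rat, the soma level was 7.16 RPM (interval 4.01 to 11.8). It was at least 2.41-fold higher when 3 reads are allowed for the dendrites, with a counting interval of 0.696 to 8.31 that includes equal levels. With soma contigs over 400 nt left out it was 3.23 RPM.

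Grik5, which encodes GluK5, had opposite directions in the 2 species. In mouse it had 137 reads in dendrites and 4 in somas, all in intron 8, and dendrites were 20.6-fold higher in RPM (counting interval 7.62 to 55.6). With soma contigs over 400 nt left out, somas had no Grik5 reads and dendrites were at least 13.1-fold higher. In rat it had 6 reads in intron 11 of dendrites and 524 in intron 17 of somas, and somas were 42.0-fold higher (counting interval 18.8 to 93.9). With soma contigs over 400 nt left out, the dendrite to soma ratio in rat went from 0.0238 to 0.00704, through the smaller soma total alone. The mouse and the rat values thus came from different introns. Intron 8 of mouse Grik5 is 1376 nt long (chr7:25844113-25845488, minus strand) and interrupts the coding sequence after codon 301 of 979. The dendrite contig of 909 nt covered 66.1% of it and shared 333 nt with the soma contig of 486 nt, which the limit of 400 nt would leave out. Cardiomyocytes had 2 reads in intron 3, and BAT cells had none.

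Grid1, which encodes GluD1, was the receptor gene with the most reads in mouse dendrites and in BAT cells. It had 1508 reads in dendrites, 8 in somas, 5110 in BAT cells and 4 in cardiomyocytes. In RPM the levels were 488.6 (interval 464.2 to 513.9), 4.31 (interval 1.86 to 8.50), 286.1 (interval 278.3 to 294.1) and 0.328 (interval 0.0893 to 0.839). Dendrites exceeded somas 113-fold (counting interval 56.6 to 227). With contigs over 400 nt left out in whole cells but not in dendrites, this was 54.0-fold. The level of BAT cells was then 665 RPM, above that of dendrites. Each Grid1 intron of somas and BAT cells kept a shorter contig and so all its reads. Both values therefore moved only through the smaller totals of listed reads. Brown fat and cardiomyocyte markers were also higher in mouse dendrites than in somas, and glial markers were lower. The part of other cells in the Grid1 values was not tested. Of the 4 receptor genes that could be compared in mouse, Grik5 and Grid1 were at least 4-fold higher in dendrites, as were 43.6% of all genes compared, and Grik1 was at least 4-fold lower. In rat, 1 of 5 was higher in dendrites (48.7% of genes) and 3 were lower (23.6%).

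**Figure D4:**
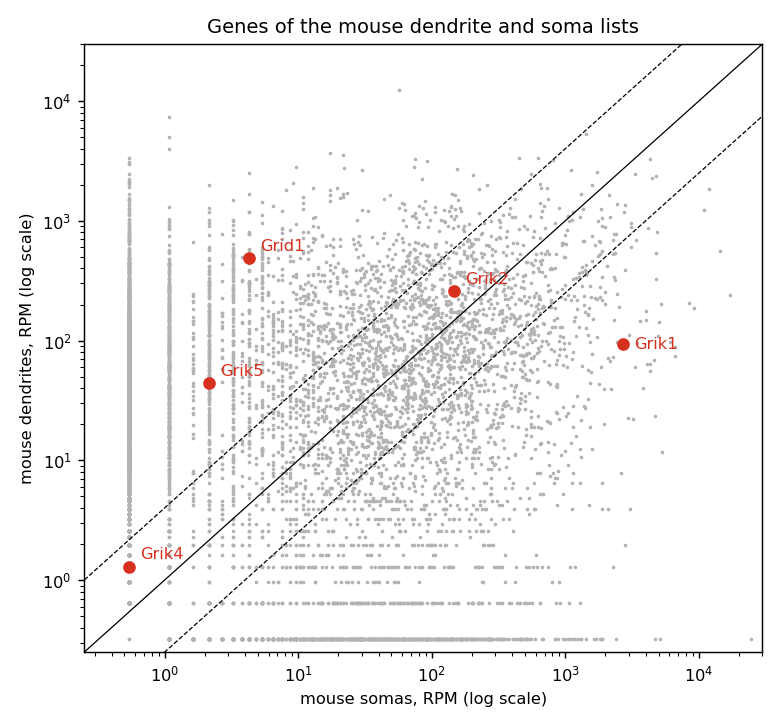
RPM in mouse somas (x axis, log scale) and dendrites (y axis, log scale) for every gene of either list in grey and the receptor genes in red, with genes absent from a list set at the level of 1 read. The solid line marks equal levels and the dashed lines 4-fold differences, and Grik1 lies below the lower dashed line while Grik5 and Grid1 lie above the upper.

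The reads of Grid1 came mainly from intron 8, a large intron of 120779 nt (chr14:36136621-36257399, plus strand) after codon 411 of 1009. It was the only receptor intron in all 4 mouse lists, with 1272 reads in dendrites, 8 in somas, 3091 in BAT cells and 2 in cardiomyocytes. Intron 12 (68289 nt) had 174 reads in dendrites and 529 in BAT cells, and intron 13 (41610 nt) had 52 and 1490. Contigs covered little of these introns, at most 5.96% in intron 13 and 4.11% in intron 8, both in BAT cells. The 20 BAT cell contigs and the 8 dendrite contigs of Grid1 shared no base, although 6 of the dendrite contigs lay in introns listed in both. The share over all genes was again 29.4%. The 4 soma contigs lay within intron 8, and 1 of them, of 219 nt, lay inside a dendrite contig of 427 nt.

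Because neuronal receptor genes were listed in BAT cells, markers of other cells are given beside them. The cardiomyocyte markers were listed there for 6 of 10 genes at 2081 RPM in sum. The glial markers were listed for 6 of 10 genes at 49.5 RPM in sum and the peripheral nerve and Schwann cell markers for 2 of 6 at 0.280. Neuronal markers were listed for 6 of 12 genes at 612.5 RPM, nearly all from Syt1 (8127 reads) and Snap25 (2754 reads), while Map2, Rbfox3, Tubb3 and Gad1 had none there and none in mouse dendrites. Ucp1, the uncoupling protein that defines brown fat, had 6596 reads. The part of other cells in the Grik2 and Grid1 values of BAT cells was not tested.

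Levels of different genes were compared per length, as RPM per kb of annotated intron. In mouse dendrites Grik5 (0.756), Grid1 (0.645) and Grik1 (0.597) lay close together, with Grik2 at 0.376 and Grik4 at 0.00308. In mouse somas Grik1 stood at 17.2 and the next, Grik2, at 0.216, followed by Grik5 at 0.0367 and Grid1 at 0.00569. In BAT cells the order was Grid1 (0.378), Grik2 (0.206) and Grik3 (0.00679). The counting intervals of Grik5 (0.635 to 0.894) and Grid1 (0.613 to 0.678) in dendrites overlapped, with 58681 nt of intron in Grik5 and 757552 nt in Grid1. The length used for Grik1 covers 15 of its 16 introns, since the annotated transcript lacks the first, and its values per kb are therefore too high by an amount not analysed here.

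**Figure D5:**
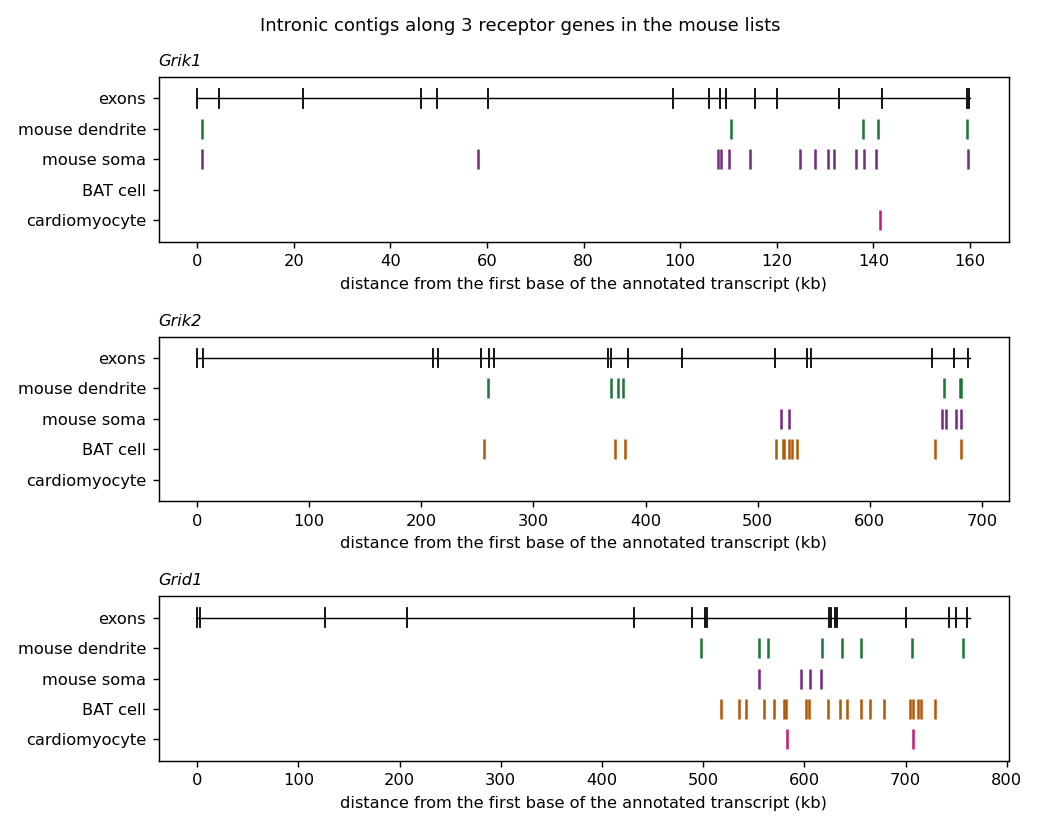
Position of each contig (coloured ticks, 1 row per mouse list) along Grik1, Grik2 and Grid1, with exons as black ticks, by distance from the first base of the annotated transcript (x axis, kb). The Grid1 contigs all lie beyond its 2 largest introns, and Grik1 and Grik2 have few contigs in the first part of the gene.

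Of the 100 receptor introns with an annotated length, 22 held a contig in at least 1 mouse list and 13 in at least 2, against 28.8% and 11.4% of the introns of all listed transcripts. The 22 introns had a median length of 10466 nt and the other 78 a median of 4650 nt. Over all genes, the share of introns with a contig in dendrites also depended on length, with 4.03% of the introns under 1000 nt, 19.8% of those from 1000 to 10000 nt 35.7% of those from 10000 to 30000 nt and 31.1% of those from 30000 to 100000 nt, beside 1 of 11, 6 of 37, 5 of 21 and 2 of 8 receptor introns. The largest intron of Grid1 (intron 4, 224743 nt), that of Grik2 (intron 2, 204842 nt), that of Grik3 (intron 1, 132535 nt) and that of Grik4 (intron 1, 125352 nt) held none. Over all listed transcripts, 15.2% of the introns of at least 100000 nt held a contig in dendrites, 16.7% in somas, 15.7% in BAT cells and 17.7% in cardiomyocytes. Of such introns in listed receptor genes it was 1 of 8, 1 of 6, 1 of 7 and 1 of 3. Introns that overlapped a gene prediction or held a poly(A) site had been filtered out by the authors, and which receptor introns this touched was not analysed here. The introns with a contig made up 17.4% of the introns of listed receptor genes in dendrites (interval 10.9 to 26.8), 19.7% in somas (interval 11.9 to 30.8), 19.6% in BAT cells (interval 10.7 to 33.2) and 4 of 50 introns in cardiomyocytes (interval 3.15% to 18.8%). Over all listed transcripts the shares were 15.8%, 11.9%, 21.8% and 14.6%, each within the interval of the receptor genes, the soma value close to the lower bound. Grik1 stood out in somas with 8 of 16 introns (50.0%, interval 28.0 to 72.0).

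The side of the gene on which the listed introns lay was counted after the positions were seen. Counting the middle intron to the 5′ side, 9 of 15 receptor introns in dendrites, 9 of 13 in somas, 7 of 9 in BAT cells and 2 of 4 in cardiomyocytes lay on the 3′ side. Over all genes the shares were 42.4%, 46.3%, 46.7% and 49.1%. Over the 4 mouse lists 14 of 22 receptor introns (63.6%) lay there, against 47.0% over all genes. By gene it was 6 of 8 in Grik1, 4 of 5 in Grik2, 3 of 5 in Grid1, 1 of 1 in Grik3, 0 of 1 in Grik4 and 0 of 2 in Grik5.

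Introns with at least 250 reads numbered 4 of 15 in mouse dendrites, 5 of 13 in mouse somas, 4 of 9 in BAT cells, 0 of 4 in cardiomyocytes, 0 of 2 in rat dendrites and 4 of 10 in rat somas. Over all introns of these lists the shares were 13.1%, 13.5%, 22.0%, 32.8%, 10.7% and 23.4%. At the other end, all 4 cardiomyocyte introns had 2 reads each, as had 2 introns each in mouse dendrites and somas. Over all introns, 2 or fewer reads were found for 12.6% in cardiomyocytes, 16.3% in dendrites and 17.5% in somas. In rat somas it was 1 of 10 receptor introns, against 744 of 5315 introns over all genes. The contigs of the receptors had a median length of 252 nt in dendrites, 453 nt in somas and 272 nt in BAT cells, against 257, 278 and 274 nt over all contigs. The Grik1 contigs of somas had a median of 588 nt and reached 1845 nt.

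Tracts of at least 10 adenines, at which a poly(T) primer can anneal, were searched on the gene strand within 300 nt downstream of a contig. They were found for 3 of 22 receptor contigs in mouse dendrites, 5 of 25 in somas, 1 of 32 in BAT cells and 1 of 4 in cardiomyocytes. Over all contigs the shares were 8.08%, 18.5%, 7.34% and 9.42%. The contigs with a tract lay in introns 2 and 13 of Grik1, introns 12 and 16 of Grik2, intron 3 of Grik5 and intron 8 of Grid1. None of the 20 Grid1 contigs of BAT cells and none of the 8 of dendrites had such a tract downstream. The contigs themselves were not searched. The tract downstream of the Grid1 soma contig began inside the dendrite contig that overlaps it. The median GC content of the receptor contigs was 39.6% in dendrites, 37.1% in somas and 36.0% in BAT cells, against 40.9%, 41.6% and 41.4% over all contigs.

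Further genes of the glutamate receptor pathway were taken from a list of 35. It holds glutamate receptor subunits, auxiliary subunits, scaffolds, delta receptor ligands and further genes such as Cul3, Klhl24, Klhl17, Nsf and Adarb1. Of the 28 found in any mouse list, 25 were listed in dendrites (69.0% over all genes), 22 in somas (47.3%), 24 in BAT cells (82.0%) and 16 in cardiomyocytes (49.8%). Of the 19 found in a rat list, 18 were listed in dendrites (78.5%) and 13 in somas (59.4%). Of 25 that could be compared in mouse, 4 were at least 4-fold higher in dendrites (Grin3b, Neto1, Neto2 and C1ql3), against 43.6% of all genes, and 10 at least 4-fold lower, against 22.0%, and the median dendrite to soma ratio was 0.324, against 2.40 over all genes. In rat, 7 of 19 were higher (48.7% of all genes) and 4 lower (23.6%), with a median of 0.814 against 3.46.

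Neto1 and Neto2, the auxiliary subunits of kainate receptors, had 397 and 207 reads in mouse dendrites and 2 and 20 in mouse somas. Neto2 had 247 reads in rat dendrites and none in rat somas. Gria1 and Gria4, AMPA receptor subunits, had 195 and 1716 reads in mouse dendrites and 7610 and 26828 in mouse somas, on the side of Grik1. Gria3, another AMPA receptor subunit gene, had 288.4 RPM in mouse dendrites and 103.5 in somas, and 1120 in rat dendrites and 2.86 in rat somas. Nrxn3, a neurexin, had 1192 reads in dendrites and 5182 in somas.

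The genes whose levels over the 4 mouse lists were most like a receptor gene were found among 6123 genes with reads in at least 3 of these lists, by distance on the log2 scale of RPM plus 1. For Grik1 they were Dgat2l6 (distance 1.24) and Gad2 (1.44), for Grik2 Fut8 (0.277) and Pgr (0.620), for Grik5 Rab8a (0.268) and Clmn (0.598), and for Grid1 Ranbp3l (0.329) and Nup210l (0.528). Gad2 had 149.7 RPM in dendrites and 2329 in somas, beside 94.0 and 2701 for Grik1. Ranbp3l had 481.1 in dendrites, 5.39 in somas and 282.2 in BAT cells, beside 488.6, 4.31 and 286.1 for Grid1. With 4 points per gene and no replicates, these distances describe the lists alone.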

How the data were processed

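Amplified RNA (aRNA) of 26 libraries was sequenced by the authors, who counted intronic reads that mapped to 1 place, filtered out introns that overlap a gene prediction or hold a poly(A) site, joined reads within 500 nt into contigs and pooled the libraries of a condition in 1 list. The deposited values are raw counts of reads per intron, repeated on every contig of the intron and therefore taken once. Per the labels the builds are mm9 (NCBIM37) and rn4. Contig starts and stops were both taken as counted from 0 with the stop included, since 950 to 7077 contigs of each mouse list then ended at an annotated intron end, against 0 to 6 otherwise. Introns, lengths and codons came from GENCODE for NCBIM37, which matched 98.1% of the mouse transcripts. Grik1 numbering was shifted by 1, because the annotated transcript lacks the first RefSeq exon. Rat introns without contigs, their lengths and sequences were not analysed here. Some genes and sequences are not reported here.

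All contigs of the lists were kept. Absent genes were set to 3 reads for ratios, and 4-fold was the limit. The genes named were the receptor genes, their introns with at least 250 reads or in at least 2 lists, genes of the pathway list and the 2 most alike genes. The limit of 250 reads was set after the values were seen, in place of a slightly higher one written before the files were read, and 0 receptor introns of any list lay between them. The receptor genes and lists were chosen with earlier results of these data known. Python 3.11.15, pandas 2.3.3, numpy 2.4.6, scipy 1.17.1 and matplotlib 3.10.9 were used, and functions were tested on simulated lists. Alternatives changed the contig length limit (400 nt), read minimums, scaling, overlap and tract definitions.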

Additional observations from a re-analysis of the deposited data

How the results depend on the processing

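With 1 pooled list per condition, leaving out single libraries was not possible, and no difference was tested. No paired analysis was possible because the lists carry no values per library. Under the alternatives for the main results, 62 values stayed within their counting interval or within 1.5 times the count reported, and 28 did not. None of the 4-fold differences of the receptor genes between dendrites and somas changed direction or was lost under the alternatives run for them, while those of single introns and of pathway genes were not recomputed.

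Without the 100 introns with most reads in the total, the receptor reads in RPM were 1097 in mouse dendrites, 4138 in mouse somas, 550 in BAT cells, 62.3 in rat dendrites and 3527 in rat somas. Under the length limit of 400 nt, which the study set for whole cells, they were 1982 in mouse somas, 996 in BAT cells, 1.72 in cardiomyocytes and 4882 in rat somas. For Grik2 alone they were 106 in mouse somas and 328 in BAT cells. For Grid1 they were 665 in BAT cells. The limit was not applied to dendrites. Introns of whole cells with any contig left kept all their reads, while the totals of listed reads fell. With the limit in somas, 0 dendrite contigs of Grik1 and 0 of Grik5 overlapped a soma contig, an alternative chosen after seeing the data. The same limit left 7 receptor introns (10.6%) in mouse somas and 6 in rat somas. It gave dendrite to soma ratios of 0.0503 for Grik1, 2.42 for Grik2 13.1 for Grik5 and 54.0 for Grid1 in mouse, and of 0.00101 for Grik1, 6.56 for Grik2, 0.00275 for Grik3 and 0.00704 for Grik5 in rat. Scaling by the median ratio gave 0.0289 for Grik1 and 1.45 for Grik2 in mouse, and 0.00122 for Grik1, 13.3 for Grik2, 0.00489 for Grik3, 0.25 for Grik4 and 0.0143 for Grik5 in rat. With at least 32 reads, 8 receptor introns (9.30%) remained listed in mouse dendrites, 8 in mouse somas, 5 in BAT cells, 1 in rat dendrites and 0.00% in cardiomyocytes. Tracts of at least 12 adenines stood beside 4.55% of receptor contigs in mouse dendrites. The counts of listed pathway genes stayed within 1.5 times.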
